A study of Mus musculus with 17 samples.

Results

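The 38 genes described here make up the core of the mitotic cell cycle, from the G1 cyclins through DNA replication to the proteins of the spindle. They were taken by symbol from a fixed list drawn up with earlier results of these data known, and all 38 were found among the 15355 genes of the deposited table. The table holds 17 libraries of ribosome-bound RNA from the mediobasal hypothalamus of POMC RiboTag mice, in which ribosomes of cells expressing pro-opiomelanocortin (POMC), the precursor of appetite-suppressing peptides, carry a haemagglutinin (HA) tag that an antibody pulls down. The driver marks cells in which the Pomc promoter is or has been active, so the pull-down can hold descendants of progenitors that used it, and untagged RNA can be carried along. All groups are offspring of POMC RiboTag dams that entered the experiment at 6 weeks of age, were bred 4 weeks into their diet and kept it until postnatal day 21. Chow P0 (5 libraries) and chow P21 (3 libraries) are offspring of dams on standard chow at postnatal days 0 and 21, the day of weaning. HFD P0 (5 libraries) and HFD P21 (4 libraries) are offspring of dams on a 45% high-fat diet at the same ages. No sex, litter, pool or library batch is given for any sample, so the p-values below measure the spread between these samples, which may be technical in part.

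Dividing cells pass through G1, S, G2 and M phase under the control of cyclin-dependent kinases (CDKs), which are switched on by cyclins and held back by inhibitors. Genes of DNA synthesis are largely switched on by E2F factors at the start of S phase, while genes of mitosis are kept silent in resting cells by a repressor complex that binds a cell cycle homology region, often near CCAAT boxes. Neurons leave the cycle when they are born, and in the hypothalamus arcuate neurons are born before birth, whereas progenitors and glial precursors go on dividing after it. Several G1 genes, the D-type cyclins and the inhibitors among them, are also made by cells that no longer divide.

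Values are normalized signal in units close to CPM (CPM-like units: read counts scaled to a common library total), and differences are given as log2 of (value + 1), which understates the change of genes near 0. The libraries held 22.4 to 37.1 M reads (M, mega) counted to genes, 1 read stood for 0.0275 to 0.0460 units, and a value of 0 allows up to 3 reads, or 0.0826 to 0.138 units (counting error only). Pomc itself was at 146, 224, 657, 891 and 1308 in the 5 chow P0 libraries and 4679, 3878 and 12069.6 in the 3 chow P21 libraries. In HFD offspring it was at 90.7, 246, 102, 181 and 1057 at P0 and 9818, 8268, 7460.1 and 8528 at P21. Libraries of 1 group differed widely from each other at P0, with HFD P0 replicate 5 and chow P0 replicates 3, 4 and 5 high in Pomc, and at P21 chow replicate 3 stood above the other chow libraries.

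**Figure D1:**
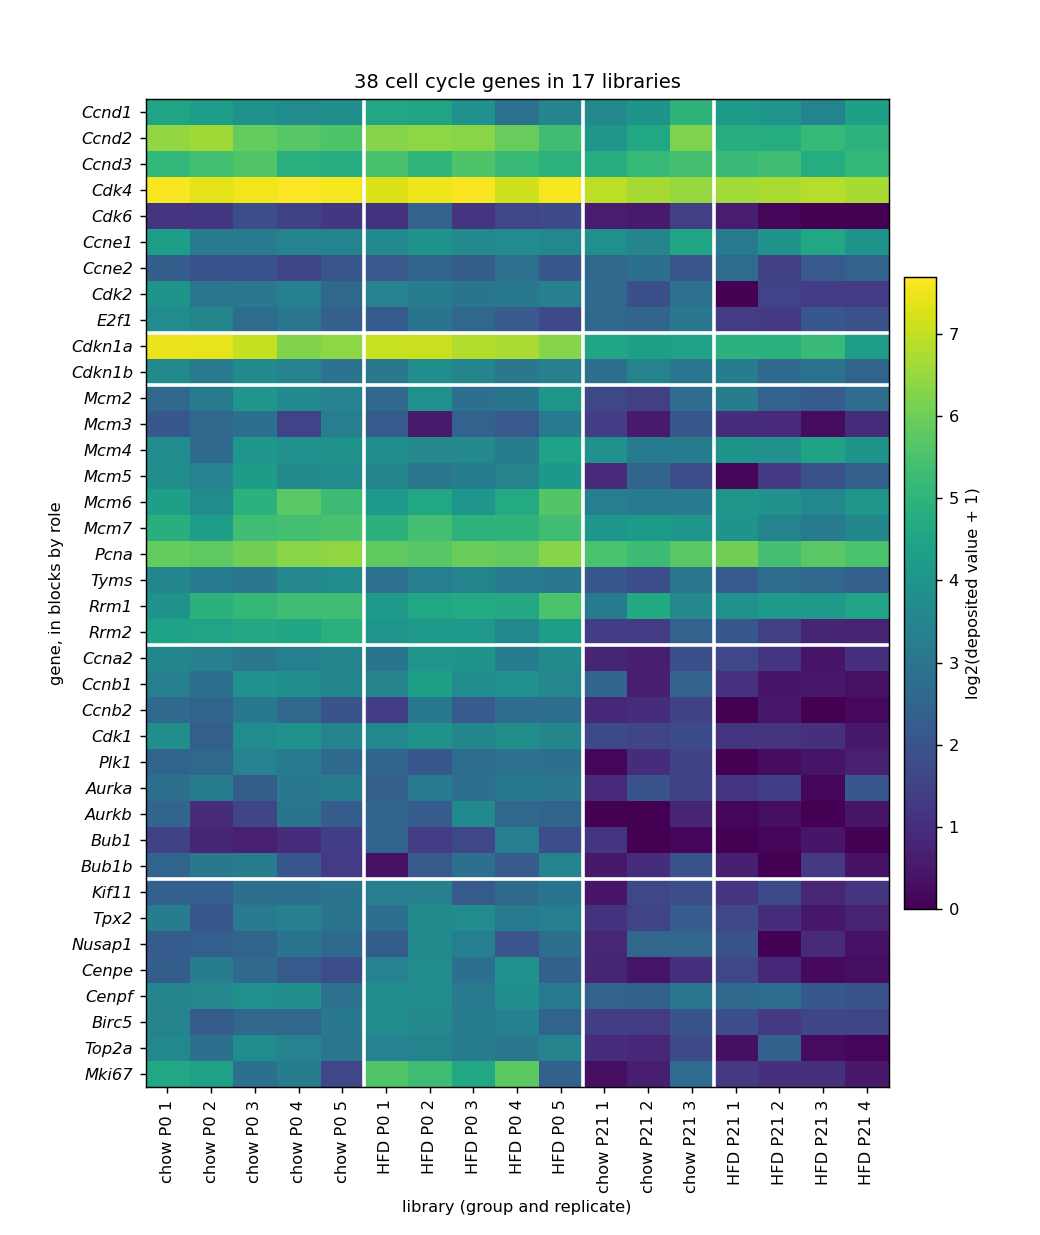
Heat map of log2(deposited value + 1) for the 38 cell cycle genes (rows, in blocks by role) in the 17 libraries (columns, by group and replicate). The blocks of mitotic genes are darker in the 7 P21 libraries than in the 10 P0 libraries, while Cdk4 and Pcna stay bright at both ages.

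The first question is how the cell cycle genes differed between birth and weaning. In chow offspring 26 of the 38 genes fell from P0 to P21 and none rose at an adjusted p under 0.05 (limma, Benjamini-Hochberg over all genes), where 36.1% of the 14549 genes tested were called, 17.7% lower and 18.3% higher. In HFD offspring 27 of 38 fell and none rose, beside 50.9% called, 26.2% lower and 24.7% higher, among 14245 genes. The median difference of the 38 genes was -1.15 in chow and -1.64 in HFD offspring, against -0.01 and -0.05 over all genes tested. Of the 38, 22 fell in both fits. Mcm2, Mcm6, Pcna and Rrm1 were past the threshold in chow offspring alone, Bub1, Cdk2, Cdk6, Mcm3 and Nusap1 in HFD offspring alone, and Ccnd1, Ccnd3, Ccne1, Ccne2, Cdkn1b, E2f1 and Mcm4 in neither. A gene near 0 at P21 can enter the test through its P0 libraries, and can then only be called lower or not at all. Cdk6, Ccnb2, Plk1, Aurkb, Bub1, Bub1b, Cenpe and Top2a were too low at P21 to be tested between the diets there. All of these were called lower in HFD offspring, and all but Cdk6 and Bub1 in chow. The shares over all genes used the same filter.

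**Figure D2:**
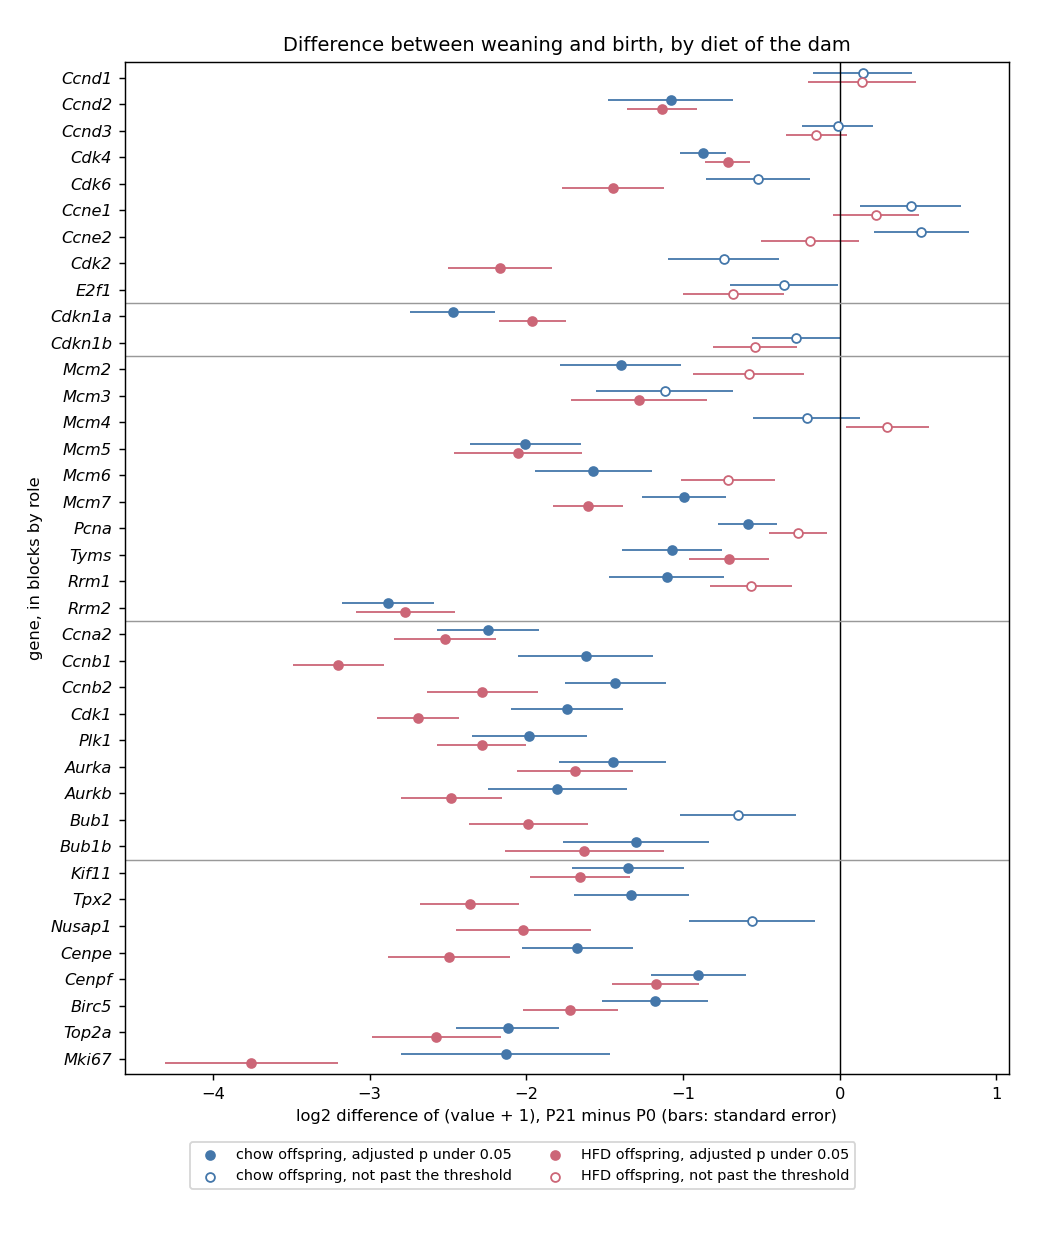
Difference between P21 and P0 for each of the 38 genes (horizontal axis: log2 difference of value + 1, with the standard error as bars) in chow and HFD offspring, filled where the adjusted p was under 0.05. All 17 genes of the 2 mitotic blocks at the bottom lie to the left of 0 in both diets, while the D-type and E-type cyclins at the top lie around it, apart from Ccnd2.

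By role the counts were as follows. Of the 9 cyclins and kinases of S, G2 and M phase 8 fell in chow and 9 in HFD offspring, with medians of -1.62 and -2.29. The HFD median of this role was -4.18 by edgeR on the whole reads. Of the 8 genes of the spindle, kinetochore and chromosomes 7 and 8 fell, with medians of -1.34 and -2.19. Of the 10 genes of replication licensing and DNA synthesis 8 and 5 fell, with medians of -1.11 and -0.71, and of the 9 G1 cyclins, kinases and E2f1 2 and 4 fell, with medians of -0.35 and -0.68. Of the 2 CDK inhibitors Cdkn1a fell in both. Of the genes named above as too low at P21, Ccnb2, Plk1, Aurkb, Bub1 and Bub1b belong to the S, G2 and M phase role. Cenpe and Top2a belong to the spindle role and Cdk6 to the G1 role. The groups of libraries did not overlap, with every P21 library below every P0 library, for 19 of the 38 genes in chow and 25 in HFD offspring, beside 17.9% and 19.7% of all genes tested.

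In bulk RNA of this kind fewer dividing cells and less RNA per cell cannot be told apart. Markers of other cells moved with age in the same libraries. The summed value of 14 markers of neural progenitors and radial glia ran from 1454 to 2499 in chow P0 and 516 to 630 in chow P21, and from 1074 to 1931 in HFD P0 and 317 to 406 in HFD P21, and 8 of the 14 fell in each diet. All 9 markers of immature neurons fell in both diets, from a sum of 5547 to 6930 to one of 1584 to 1684 in chow and from 5530 to 6677 to 1719 to 2130 in HFD offspring. All 8 markers of myelinating oligodendrocytes rose in both diets, as did 9 of 10 astrocyte markers in chow and 8 in HFD offspring, where 1 fell. Of 12 microglia markers 8 rose in chow and 3 in HFD offspring, of 12 endothelial and mural markers 1 and 9 fell, and of 14 genes of POMC neuron identity 5 and 10 rose and 1 and 0 fell. Of 10 markers of oligodendrocyte precursors, cells that still divide at weaning, 5 rose and 1 fell in chow and 4 rose and 3 fell in HFD offspring. Of the erythroid list 2 genes are in the table, of which 1 rose in chow and both in HFD offspring, and their sum was 24.8, 37.5 and 193 in chow P21, highest in replicate 3. The marker counts stand beside 17.7% lower and 18.3% higher of all genes tested in chow and 26.2% and 24.7% in HFD offspring. The 3 microglia markers that rose in HFD offspring and the 1 endothelial or mural marker that fell in chow were near or below those shares. The same holds for the precursor markers that fell. Cspg4 is on both the precursor list and the endothelial and mural list. No marker list had a gene at 0 in all libraries of a group. The part of these cells in the levels of the cell cycle genes was not tested.

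Promoters of the members were set beside those of all genes in the table, the members among them. Genes that fell with age were not compared with genes that did not. RefSeq promoter windows on GRCm38.p6 (mm10), 250 bases before to 50 after the start, were at hand for 31 of the 38 genes. An E2F-type site (TTCCCGC or TTGGCGC) was found on either strand in 9 of 31 (29.0%), against 12.1% of 11263 promoters of genes in the table. A cell cycle homology region (TTTGAA, either strand) was found in 10 (32.3%), against 11.5%, and a CCAAT box (CCAAT, either strand) in 22 (71.0%), against 38.4%. All 10 promoters with TTTGAA also held CCAAT, a pair found in 4.82% of all promoters. TTTGAA was found in 5 of 7 S, G2 and M phase genes and 4 of 7 spindle and chromosome genes, in 1 of 9 replication genes, and in none of 6 G1 genes or 2 inhibitors. The E2F-type letters were found in 5 of 9 replication genes. Motifs overlapped each other in 2 of the 31 promoters and 107 of the 11263. These are matches of letters and not sites known to be bound.

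One promoter is shown for each role, that of the gene with the smallest p in chow offspring among those holding a motif, as the 250 bases before the start, 5′ to 3′ on the strand of the gene. Capitals mark the matches, on either strand: the E2F-type sites as GCGGGAA in Cdk2, the homology region as TTTGAA or TTCAAA in Top2a, and CCAAT or ATTGG in all 5.
Cdk2 (chr10:128705052-128705301, - strand): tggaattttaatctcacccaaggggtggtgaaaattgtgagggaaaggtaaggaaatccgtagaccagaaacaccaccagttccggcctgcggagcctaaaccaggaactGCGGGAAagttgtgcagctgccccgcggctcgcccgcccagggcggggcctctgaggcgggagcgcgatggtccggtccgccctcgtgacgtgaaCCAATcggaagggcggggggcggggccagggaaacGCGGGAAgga
Cdkn1b (chr6:134920151-134920400, + strand): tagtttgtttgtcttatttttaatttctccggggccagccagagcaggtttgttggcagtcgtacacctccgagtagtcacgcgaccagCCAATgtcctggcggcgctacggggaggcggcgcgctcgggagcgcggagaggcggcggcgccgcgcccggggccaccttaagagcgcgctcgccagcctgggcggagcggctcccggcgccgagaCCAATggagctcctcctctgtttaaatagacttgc
Rrm2 (chr12:24708004-24708253, + strand): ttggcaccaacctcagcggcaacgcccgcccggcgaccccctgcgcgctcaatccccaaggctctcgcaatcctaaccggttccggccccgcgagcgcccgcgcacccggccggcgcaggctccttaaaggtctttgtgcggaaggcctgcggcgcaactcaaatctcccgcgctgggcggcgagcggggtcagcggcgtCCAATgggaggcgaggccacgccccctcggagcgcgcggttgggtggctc
Plk1 (chr7:122159185-122159434, + strand): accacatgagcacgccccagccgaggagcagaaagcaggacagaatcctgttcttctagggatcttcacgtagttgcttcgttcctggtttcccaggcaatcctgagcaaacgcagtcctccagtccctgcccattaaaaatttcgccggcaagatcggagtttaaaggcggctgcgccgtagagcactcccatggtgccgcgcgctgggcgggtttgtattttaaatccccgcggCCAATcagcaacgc
Top2a (chr11:99024190-99024439, - strand): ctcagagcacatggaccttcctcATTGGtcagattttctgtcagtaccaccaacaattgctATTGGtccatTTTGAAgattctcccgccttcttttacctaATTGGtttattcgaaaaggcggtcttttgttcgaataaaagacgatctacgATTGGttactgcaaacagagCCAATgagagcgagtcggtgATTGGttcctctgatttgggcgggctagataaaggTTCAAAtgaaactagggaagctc
The Top2a promoter holds 6 CCAAT boxes and 2 homology regions in this stretch, and that of Rrm2 a single CCAAT box. Plk1 and Cdkn1b each had 1 further match in the 50 bases after the start, which are not shown. That of Plk1 was its 1 homology region and that of Cdkn1b a CCAAT box.

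Of the S, G2 and M phase genes, Ccna2 encodes cyclin A2 of S and G2 phase. It was at 10.6, 9.25, 7.32, 9 and 10.1 in chow P0 and 0.74, 0.58 and 2.62 in chow P21, a difference of -2.24 (SE 0.33, adjusted p = 0.000184). In HFD offspring it was at 7, 15.04, 14.8, 8.61 and 11.97 at P0 and 2.14, 1.26, 0.34 and 1.06 at P21, which is -2.52 (SE 0.32, adjusted p = 2.6e-05). Every P21 library lay below every P0 library in both diets, with chow replicate 3 the highest of the chow P21 libraries.

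Ccnb1, cyclin B1, is the partner with which Cdk1 starts mitosis. Its values were 9.02, 6.09, 13.9, 13.2 and 10.4 in chow P0, 4.72, 0.55 and 4.32 in chow P21, 9.77, 19.96, 12.3, 13.9 and 10.9 in HFD P0 and 1.16, 0.36, 0.44 and 0.27 in HFD P21. The groups did not overlap within either diet, but chow P21 replicates 1 and 3 kept 4.72 and 4.32 units where replicate 2 was at 0.55. Ccnb1 differed by -1.62 (SE 0.43, adjusted p = 0.0101) in chow and -3.20 (SE 0.29, adjusted p = 1.31e-06) in HFD offspring, and without chow P21 replicate 2 the chow difference was -1.01 (adjusted p = 0.0566).

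Cdk1, the kinase of mitosis, was at 13.1, 4.08, 12.48, 13.9 and 9.89 in chow P0 and at 2.33, 2.07 and 2.44 in chow P21. In HFD offspring it went from 10.98, 14.2, 10.6, 13.01 and 10.2 to 1.23, 1.26, 1.09 and 0.43. Only chow P0 replicate 2, at 4.08, came near the P21 libraries, and no groups overlapped. The differences were -1.74 (SE 0.36, adjusted p = 0.00233) and -2.69 (SE 0.26, adjusted p = 2.35e-06).

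Aurkb, the kinase of the chromosomal passenger complex, was listed at 0 in 2 of 3 chow P21 libraries and 1 of 4 HFD P21 libraries. It was at 4.73, 0.96, 2.06, 6.97 and 3.72 in chow P0 and 0, 0 and 0.74 in chow P21, and at 4.62, 3.73, 11.6, 4.8 and 4.53 in HFD P0 and 0.07, 0.23, 0 and 0.33 in HFD P21. All 7 P21 libraries lay below all 10 P0 libraries. The differences were -1.80 (SE 0.44, adjusted p = 0.00673) and -2.48 (SE 0.32, adjusted p = 2.83e-05). Plk1, a kinase of mitotic entry and exit, was also lower in every P21 library than in any P0 library, with 4.61 to 9.55 in chow P0, 0.09 to 1.84 in chow P21, 3.39 to 6.44 in HFD P0 and 0 to 0.6 in HFD P21, and fell, at -1.98 and -2.29. Aurka, the centrosomal kinase, fell, at -1.45 (adjusted p = 0.00507) and -1.69 (0.00181), and Ccnb2, cyclin B2, at -1.43 (0.00403) and -2.28 (0.000126).

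The checkpoint kinases Bub1 and Bub1b hold mitosis until chromosomes are attached. Bub1 was low in chow P0, at 1.89, 0.72, 0.61, 0.96 and 1.68, and higher in HFD P0, at 4.54, 1.61, 2.19, 9.05 and 2.52. At P21 it was at 1.24, 0 and 0.09 in chow and 0, 0.07, 0.37 and 0.03 in HFD offspring, so that chow P21 replicate 1 lay among the chow P0 libraries. Its difference with age was -0.65 (SE 0.37, adjusted p = 0.189) in chow and -1.99 (SE 0.38, adjusted p = 0.000647) in HFD offspring. Bub1b fell from 5.1 ± 2.93 to 1.43 ± 1.26 (mean ± SD, n = 5 and 3) in chow and from 4.69 ± 3.6 to 0.57 ± 0.611 (n = 5 and 4) in HFD offspring, at -1.30 (SE 0.46, adjusted p = 0.043) and -1.63 (SE 0.51, adjusted p = 0.0159). The chow call of Bub1b was lost without any 1 of chow P0 replicates 1, 2 and 3 or chow P21 replicates 1 and 2, where it lay between -1.29 and -0.99 (adjusted p = 0.179), and the HFD call without HFD P21 replicate 2, at -1.44 (adjusted p = 0.0515).

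Among the genes of chromosomes and the spindle, Mki67, whose protein Ki-67 coats mitotic chromosomes and is the usual marker of cycling cells (ENSMUSG00000031004.8, chromosome 7 from 135689784 to 135716361 in mm10), varied widely between the libraries at birth. It was at 23.04, 20.2, 6.13, 8.61 and 2.12 in chow P0 and 47.45, 38.8, 23.2, 52.9 and 4.21 in HFD P0. At P21 it was at 0.24, 0.55 and 5.51 in chow and 1.47, 1.06, 1.05 and 0.43 in HFD offspring. Chow P21 replicate 3 lay above chow P0 replicate 5, so the chow groups overlapped, while the HFD groups did not. The difference was -3.75 (SE 0.55, adjusted p = 8.14e-05) in HFD and -2.13 (SE 0.67, adjusted p = 0.0246) in chow offspring, and the chow call was lost without chow P0 replicate 1 (-1.82, adjusted p = 0.0537), chow P21 replicate 1 (-1.68, adjusted p = 0.115) or chow P21 replicate 2 (-1.84, adjusted p = 0.102).

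Top2a, the topoisomerase that untangles replicated chromosomes (ENSMUSG00000020914.17, chromosome 11 from 98992943 to 99024189), varied less than Mki67 at birth. Its values were 11.1, 6.21, 12.3, 9.56 and 7.13 in chow P0 and 0.97, 0.8 and 2.44 in chow P21, a difference of -2.12 (SE 0.33, adjusted p = 0.000313). In HFD offspring they were 9.73, 10.2, 8.31, 7.49 and 9.98 at P0 and 0.25, 4.1, 0.17 and 0.1 at P21, at -2.58 (SE 0.41, adjusted p = 0.000164). No P21 library reached the P0 range, and HFD P21 replicate 2 was the highest of the 4 in its group.

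Cenpe, the motor that moves chromosomes at kinetochores, fell from 3.86, 8.37, 5.19, 3.51 and 2.64 in chow P0 to 0.74, 0.36 and 1.06 in chow P21 and from 9.69, 12.4, 6.09, 13.8 and 4.18 in HFD P0 to 2.1, 0.86, 0.14 and 0.23 in HFD P21. The groups did not overlap in either diet, and the differences were -1.67 (SE 0.35, adjusted p = 0.00258) and -2.50 (SE 0.39, adjusted p = 0.000134). Nusap1, a microtubule-bundling protein of the spindle, was at 3.69, 4.08, 4.61, 6.69 and 5.25 in chow P0 and 0.77, 4.85 and 4.78 in chow P21. Chow P21 replicates 2 and 3 thus lay within the chow P0 range and replicate 1 below it, and the difference was -0.56 (SE 0.40, adjusted p = 0.3). In HFD offspring Nusap1 went from 3.78, 11.9, 9.04, 3.12 and 6.11 to 2.77, 0.03, 0.88 and 0.3, with no overlap, at -2.02 (SE 0.43, adjusted p = 0.00146).

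The other 4 genes of this role fell in both diets. Kif11, the kinesin that pushes spindle poles apart, fell, at -1.35 in chow (adjusted p = 0.0104) and -1.66 in HFD offspring (0.000694). Tpx2, a spindle assembly factor that activates Aurora A, fell, at -1.33 (0.0128) and -2.36 (3.67e-05), and Birc5, survivin of the passenger complex, at -1.18 (0.0158) and -1.72 (0.000376). Cenpf, a kinetochore protein of G2 and M phase, fell least, from 10.9 ± 2.92 to 5.29 ± 1.59 in chow (mean ± SD, n = 5 and 3) and from 11.03 ± 2.65 to 4.35 ± 1.34 in HFD offspring (n = 5 and 4), at -0.90 (0.0336) and -1.17 (0.00309). Without chow P21 replicate 1 these 4 chow differences were -0.93, -1.07, -1.10 and -0.82 and none passed. Birc5 and Cenpf also missed without chow P21 replicate 2 (-1.07 and -0.79), and Cenpf without chow P0 replicate 1, 3 or 4 (-0.91, -0.81 and -0.83).

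In the replication role, Rrm2, the subunit of ribonucleotide reductase that is made in S phase (ENSMUSG00000020649.11, chromosome 12 from 24708241 to 24714146), fell most in both diets. It was at 21.3, 21.5, 23.97, 21.9 and 28.51 in chow P0 and 1.62, 1.52 and 4.41 in chow P21, and at 15.4, 16.53, 16.9, 10.97 and 18.9 in HFD P0 and 3.26, 1.75, 0.75 and 0.67 in HFD P21. The P0 libraries lay within a narrow range in each diet and all P21 libraries far below them. The differences were -2.88 (SE 0.29, adjusted p = 1.32e-05) and -2.77 (SE 0.32, adjusted p = 9.48e-06). Rrm1, the large subunit, which is made through the whole cycle, was at -1.10 (SE 0.37, adjusted p = 0.033) and -0.57 (SE 0.26, adjusted p = 0.0831), so that it fell in chow offspring alone, where its groups overlapped. Its chow call was lost in 5 fits that left out 1 library, chow P0 replicate 3, 4 or 5 or chow P21 replicate 1 or 3, with differences from -1.06 to -0.78. It was gained in HFD offspring without HFD P0 replicate 1, at -0.71 (adjusted p = 0.0376).

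The 6 subunits of the MCM helicase, which opens DNA at replication origins, were called in part. Mcm5 fell from 13, 9.57, 18.03, 11.6 and 12.2 to 0.92, 4.68 and 2.57 in chow and from 10.3, 7.29, 8.31, 9.97 and 16.2 to 0.07, 1.49, 2.75 and 4.03 in HFD offspring, with no overlap, at -2.01 (SE 0.35, adjusted p = 0.000764) and -2.05 (SE 0.41, adjusted p = 0.000865). Mcm7 was at 28.3, 18.6, 39.4, 41 and 44 in chow P0 and 15.47, 17.4 and 15.03 in chow P21, and at 29.7, 41.49, 30.7, 30.98 and 39.8 in HFD P0 and 14.7, 10.1, 7.8 and 10.6 in HFD P21. No P21 library reached the P0 libraries of its diet, and Mcm7 fell, at -1.0 (adjusted p = 0.0112) and -1.61 (5.01e-05).

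Mcm4 did not pass in either diet, at 12.2, 5.25, 15.4, 13.8 and 14.2 in chow P0, 13.8, 7.88 and 8.59 in chow P21, 13.4, 11.3, 11.4, 8.53 and 21.2 in HFD P0 and 14.7, 13.9, 20.52 and 14.7 in HFD P21. The groups overlapped in both diets, with differences of -0.21 (SE 0.34, adjusted p = 0.662) and 0.30 (SE 0.27, adjusted p = 0.355). Mcm6 was at 19.2, 12.2, 28.9, 51.7 and 37.7 in chow P0 and 8.92, 8.24 and 7.81 in chow P21, with no overlap, at -1.57 (SE 0.37, adjusted p = 0.00548). In HFD offspring Mcm6 was at 16.4, 23.52, 15.7, 25.1 and 49.1 at P0 and 15.96, 14.1, 11.1 and 15.8 at P21, where replicates 1 and 4 lay just above the lowest P0 library. Its HFD difference of -0.71 (SE 0.30, adjusted p = 0.0607) passed without HFD P0 replicate 1, at -0.84 (adjusted p = 0.0408), or 3, at -0.86 (adjusted p = 0.036).

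Mcm2 fell in chow offspring, from 9.76 ± 3.85 to 3.2 ± 2.18 (mean ± SD, n = 5 and 3), at -1.40 (SE 0.39, adjusted p = 0.013), and did not pass in HFD offspring, at -0.58 (SE 0.35, adjusted p = 0.185). Without chow P21 replicate 1 or 2 the chow value was -1.25 (adjusted p = 0.0566) and -1.15 (adjusted p = 0.0741). Mcm3 had the lowest level of the 6 per kilobase of exon in HFD P21, 0.212 ± 0.106 (mean ± SD, n = 4). It fell in HFD offspring, at -1.28 (SE 0.43, adjusted p = 0.0243), a call lost without HFD P0 replicate 3 (-1.20) or HFD P21 replicate 3 (-1.10). In chow offspring it was at -1.12 (SE 0.44, adjusted p = 0.064), past the threshold without chow P0 replicate 4 (-1.35) or chow P21 replicate 3 (-1.49).

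Pcna, the sliding clamp of DNA polymerases that also serves DNA repair, stayed high. It was at 58.3, 54.46, 65.02, 78.7 and 85.4 in chow P0 and 45.3, 37.55 and 51.9 in chow P21, and at 55.6, 51.4, 61.8, 56.8 and 78.4 in HFD P0 and 64.51, 41.54, 51.8 and 44.4 in HFD P21. It fell in chow offspring, with no overlap, at -0.59 (SE 0.19, adjusted p = 0.0279), and its HFD groups overlapped, at -0.27 (SE 0.18, adjusted p = 0.24). The chow call was lost without chow P0 replicate 4 (-0.53) or 5 (-0.50) or chow P21 replicate 1 (-0.60) or 2 (-0.47). Tyms, which makes the thymidylate for DNA, fell, at -1.07 (adjusted p = 0.0195) and -0.71 (0.031). Its chow call was lost without chow P21 replicate 1 (-0.96) or 2 (-0.83). Its HFD call was lost without HFD P0 replicate 2 (-0.67), 3 (-0.63) or 4 (-0.71) or HFD P21 replicate 1 (-0.63) or 4 (-0.66).

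The 3 D-type cyclins, which answer growth signals and activate Cdk4 and Cdk6 in G1, were called for Ccnd2 alone. Ccnd2 fell from 86.97, 95.46, 57.8, 51.1 and 46.9 in chow P0 to 15.9, 23.2 and 73.02 in chow P21, where replicate 3 lay among the P0 libraries. In HFD offspring it fell from 77.1, 83.48, 79.54, 58.96 and 39.4 to 26.6, 26.1, 34.9 and 30.4, with no overlap. The differences were -1.08 (SE 0.40, adjusted p = 0.0492) and -1.13 (SE 0.22, adjusted p = 0.000829). The chow call was lost without chow P0 replicate 1 (-0.98), 2 (-0.94) or 3 (-1.12) or chow P21 replicate 1 (-0.64) or 2 (-0.90).

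Ccnd1 and Ccnd3 did not pass in either diet. Ccnd1 was at 21.7, 18.8, 14.6, 12.2 and 12.8 in chow P0, 11.3, 14.8 and 30.9 in chow P21, 23.4, 21.6, 13.7, 6.28 and 10.3 in HFD P0 and 17.2, 15.1, 10.1 and 19.8 in HFD P21. Chow P21 replicate 3 was the highest of all 17 libraries, and the differences were 0.15 (SE 0.32, adjusted p = 0.75) and 0.14 (SE 0.35, adjusted p = 0.748). Ccnd3 ran from 26.9 to 47.48 in chow P0, 27.01 to 42.46 in chow P21, 30.7 to 46.51 in HFD P0 and 26.2 to 39.2 in HFD P21, at -0.01 (SE 0.23, adjusted p = 0.97) and -0.15 (SE 0.20, adjusted p = 0.548). The sign of the chow differences of Ccnd1 and Ccnd3 turned when 1 library was left out, Ccnd1 to -0.25 without chow P21 replicate 3 and Ccnd3 to 0.15 without chow P21 replicate 1. The HFD difference of Ccnd1 turned to -0.11 without HFD P0 replicate 4, and to -0.02 with all libraries scaled to the same total.

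Cdk4, the G1 kinase, had the highest level per kilobase of exon of all 38 genes in each of the 4 groups. Per kilobase it went from 58.2 ± 4.63 at P0 to 31.9 ± 5.04 at P21 in chow offspring, and from 53.2 ± 7.13 to 32.1 ± 1.91 in HFD offspring (mean ± SD). By library it was at 195, 167, 183, 207 and 193 units in chow P0, 121, 99.99 and 89.2 in chow P21, 157, 179, 195, 141 and 192 in HFD P0 and 98.3, 104, 113 and 102 in HFD P21. The groups did not overlap, and Cdk4 fell, at -0.87 in chow (SE 0.15, adjusted p = 0.000578) and -0.71 in HFD offspring (SE 0.14, adjusted p = 0.00103). Cdk6, its close relative, was low throughout, at 1.22, 1.4, 2.61, 1.79 and 1.36 in chow P0, 0.53, 0.47 and 1.75 in chow P21, 1.17, 4.36, 1.3, 2.12 and 2.43 in HFD P0 and 0.53, 0.1, 0 and 0 in HFD P21. HFD P21 replicates 3 and 4 were listed at 0, and the differences were -0.52 (SE 0.33, adjusted p = 0.244) and -1.44 (SE 0.32, adjusted p = 0.00214).

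Next to Cdk4, Cdkn1a and Pcna were the highest per kilobase at P0, at 35.6 ± 13.3 and 28.5 ± 5.52 in chow and 31.7 ± 6.52 and 25.3 ± 4.38 in HFD offspring, and these neighbours lay within 1 SD of Cdkn1a of each other. At P21 Pcna came before Cdkn1a, at 18.7 ± 3.00 against 5.82 ± 0.515 in chow and 21.1 ± 4.27 against 7.97 ± 1.98 in HFD offspring. Rrm2 went from 8.46 ± 1.09 per kilobase in chow P0, the 4th of the 38, to below the first 6 at P21, where Ccne1 was the 4th.

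Cdk2 and its partners Ccne1 and Ccne2, the E-type cyclins that open S phase, were called for Cdk2 in HFD offspring alone. Cdk2 was at 14.7, 7.13, 7.29, 9.48 and 4.92 in chow P0 and 5.14, 2.7 and 6.34 in chow P21, which overlapped. In HFD offspring it was at 9.73, 8.43, 6.98, 7.61 and 9.19 at P0 and 0, 1.92, 1.53 and 1.53 at P21, far apart. The differences were -0.74 (SE 0.35, adjusted p = 0.123) and -2.17 (SE 0.33, adjusted p = 0.000111). Ccne1 went from 10.9 ± 4.41 to 15.3 ± 6.09 in chow (mean ± SD, n = 5 and 3) and from 12.2 ± 1.23 to 15.4 ± 6.38 in HFD offspring (n = 5 and 4), with differences of 0.45 (SE 0.32, adjusted p = 0.3) and 0.23 (SE 0.27, adjusted p = 0.503). Ccne2 was at 0.52 (SE 0.30, adjusted p = 0.202) and -0.19 (SE 0.31, adjusted p = 0.631), and without HFD P21 replicate 2 its HFD difference was 0.05. E2f1, the factor that switches on S phase genes, was at -0.35 (SE 0.34, adjusted p = 0.451) and -0.68 (SE 0.32, adjusted p = 0.0929) and passed in HFD offspring without HFD P0 replicate 5, at -0.84 (adjusted p = 0.0348).

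**Figure D3:**
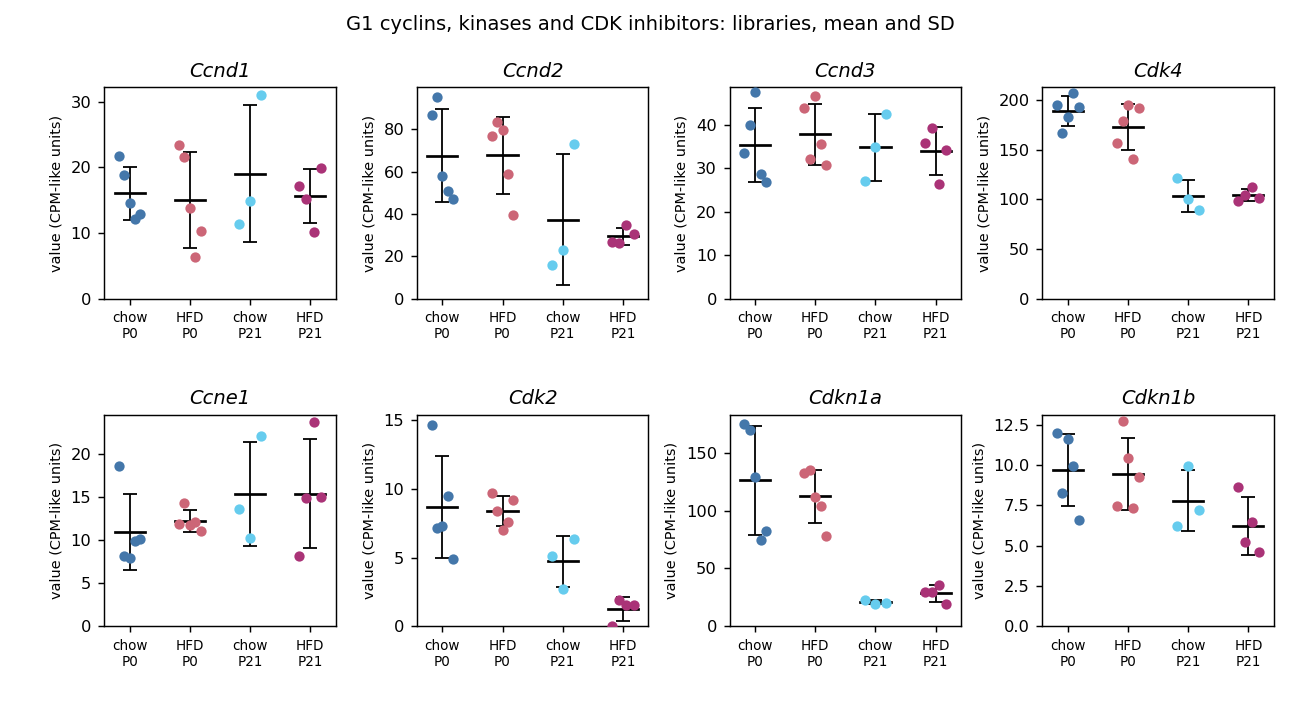
Values of 8 G1 genes and CDK inhibitors in each library (vertical axis: deposited value in CPM-like units; points: libraries; bars: mean and SD) by group. Cdk4 and Cdkn1a are lower in all P21 libraries, Ccnd1, Ccnd3, Ccne1 and Cdkn1b overlap between ages, and Cdk2 at P21 is lower in the 4 HFD libraries than in the 3 chow libraries.

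Of the 2 CDK inhibitors, Cdkn1a, which the p53 protein induces in stressed or differentiating cells (ENSMUSG00000023067.14, chromosome 17 from 29090976 to 29100727), fell in both diets. It was at 175, 170.3, 129, 74.3 and 82.52 in chow P0 and 22.8, 19.3 and 20.04 in chow P21, and at 132, 135, 112, 105 and 78.2 in HFD P0 and 29.47, 29.51, 35.6 and 18.7 in HFD P21. No P21 library reached the P0 range, and among the P0 libraries chow replicates 4 and 5 and HFD replicate 5 were the lowest of their diets. The differences were -2.47 (SE 0.27, adjusted p = 2.5e-05) and -1.96 (SE 0.21, adjusted p = 5.96e-06). Cdkn1b, the inhibitor that keeps resting cells in G1, was at 6.61 to 11.98 in chow P0, 6.23 to 9.92 in chow P21, 7.33 to 12.7 in HFD P0 and 4.59 to 8.63 in HFD P21. Its groups overlapped in both diets, at -0.28 (SE 0.28, adjusted p = 0.47) and -0.54 (SE 0.27, adjusted p = 0.109).

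Part of the age calls were lost when 1 library was left out. In chow offspring 14 of the 26 genes were called in each of 8 fits that left out 1 library (Aurka, Aurkb, Ccna2, Ccnb2, Cdk1, Cdk4, Cdkn1a, Cenpe, Mcm5, Mcm6, Mcm7, Plk1, Rrm2 and Top2a), and the count fell to 15 without chow P21 replicate 1 and to 17 without chow P21 replicate 2. Calls over all genes fell in those fits as well, from 5251 of 14549 tested to 4238 of 14791 and 3912 of 14811. In HFD offspring 24 of 27 were called in each of 9 such fits, and the exceptions were Bub1b, Mcm3 and Tyms.

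The second question is whether the dam's diet changed these genes at birth. At P0 none of the 38 passed between HFD and chow offspring, where 0.291% of 14086 genes tested were called. An unadjusted p under 0.05 was found for 5 of the 38, beside 1307 of the 14086. By edgeR's quasi-likelihood test on the whole reads none of the 38 passed either. The median difference was 0.02 (-0.05 to 0.10 with 1 library left out), against -0.00 over all genes tested. The 8 spindle and chromosome genes were all above 0, with a median of 0.33 and differences from 0.01 to 1.38, and 8 of the 10 replication genes were below 0, with a median of -0.18. None of these passed.

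The 4 genes with the smallest p at birth were Rrm2, Bub1, Cenpe and E2f1. Rrm2, whose libraries are given above, lay lower in all 5 HFD libraries than in all 5 chow libraries, the only member whose diets did not overlap at P0, beside 2.45% of all genes tested. Its difference was -0.56 (SE 0.19, adjusted p = 0.352), and it ran from -0.63 to -0.44 with 1 library left out. Bub1 was at 1.06 (SE 0.37, adjusted p = 0.354), with HFD replicate 4 the highest library and the diets overlapping. Cenpe was at 0.81 (SE 0.34, adjusted p = 0.464) and E2f1 at -0.72 (SE 0.32, adjusted p = 0.507), both with overlapping groups.

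Mki67 had the widest difference between diets at birth, 1.38 (SE 0.63, adjusted p = 0.524), and is named for that after its values were seen. It ran from 0.95 to 1.97 with 1 library left out. Its spread within the groups was among the widest of the table: within HFD P0 and chow P0 together the SD was 1.30 on the log2 scale, larger than that of 99.7% of tested genes, whose median was 0.39. The low libraries were chow replicates 3, 4 and 5 and HFD replicate 5. In the same libraries Nes, the intermediate filament of neural progenitors, was at 42.02, 61.7, 17.1, 13.9 and 14.97 in chow P0 and 52.8, 65.3, 43.7, 73.6 and 10.2 in HFD P0, low in those same 4, and Pomc was high in them. Sox2 and Sox1, the first 2 genes of the progenitor list, did not follow Nes in chow P0, where both were highest in replicate 5. In chow P0 Sox2 was at 113, 123, 93.3, 123 and 135 and Sox1 at 26.03, 21.4, 12.5, 32.8 and 36.3. In HFD P0 both were lowest in replicate 5, Sox2 at 23.4 and Sox1 at 10.4. Mcm6 was highest in chow replicate 4 and HFD replicate 5. Rrm1, at 14.4, 29.6, 33.8, 39.1 and 39.2 in chow P0 and 16.97, 23.7, 25.2, 24.2 and 44.8 in HFD P0, was highest in HFD replicate 5 and lowest in replicate 1 of both diets. Top2a had its highest value at birth in chow replicate 3 and its lowest in chow replicate 2. The part of the makeup of the libraries in these values was not tested.

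**Figure D4:**
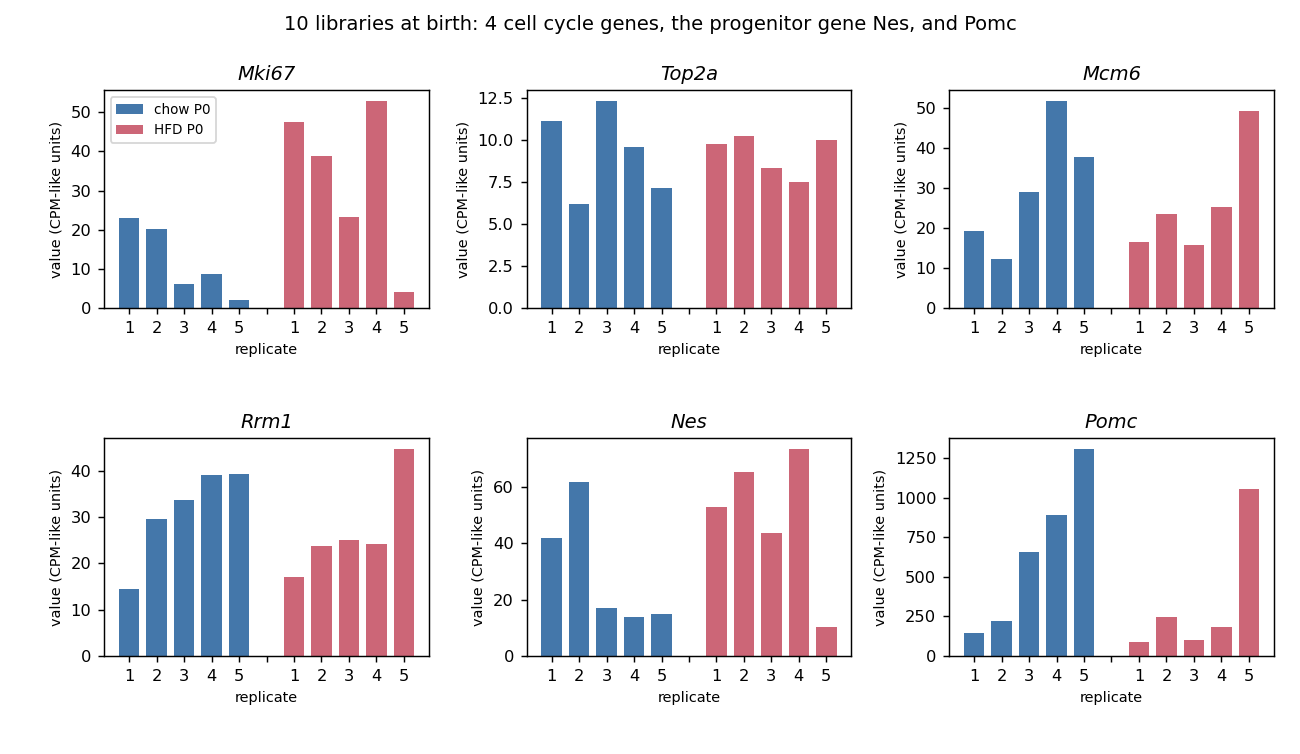
Values in the 10 libraries at birth (vertical axes: deposited value in CPM-like units; bars: 1 library each, by replicate) of Mki67, Top2a, Mcm6, Rrm1, the progenitor gene Nes and Pomc. Chow replicates 3 to 5 and HFD replicate 5 have the lowest bars for Nes and, with HFD replicate 5 at 4.21 and chow replicate 5 at 2.12, for Mki67, and the highest for Pomc.

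At weaning none of the 30 members tested passed between HFD and chow offspring, where 0.178% of 14070 genes tested were called. An unadjusted p under 0.05 was found for 6 of the 30, beside 2393 of the 14070. No member passed by edgeR either. The other 8, Cdk6, Ccnb2, Plk1, Aurkb, Bub1, Bub1b, Cenpe and Top2a, were too low at P21 to be tested. The median difference was -0.21, against -0.02 over all genes tested. With 1 library left out it ran from -0.48 (without chow P21 replicate 1, 34 members tested) to 0.04 (without chow P21 replicate 3). These comparisons share their P21 libraries with the age comparisons above.

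The 4 genes with the smallest p at weaning were Cdk2, E2f1, Mcm6 and Ccnb1. Cdk2 was lower in all 4 HFD libraries than in the 3 chow libraries, at -1.40 (SE 0.43, adjusted p = 0.148). E2f1 was at 4.96, 4.74 and 7.26 in chow P21 and 1.54, 1.49, 3.39 and 2.73 in HFD P21, also with no overlap, at -1.04 (SE 0.33, adjusted p = 0.164). Mcm6 was higher in all HFD libraries, at 0.70 (SE 0.25, adjusted p = 0.192), and Ccnb1 overlapped through chow replicate 2, at -1.25 (SE 0.47, adjusted p = 0.213). Besides these, Mcm4 was higher in all 4 HFD libraries (0.64) and Cdk1 (-0.73) and Mcm7 (-0.55) were lower in all 4. Not overlapping were thus 6 of 30 members, beside 16.1% of all genes tested.

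The third question is whether the change with age differed between the diets. No member passed the test of the diet by age interaction with the 17 libraries in 1 fit, in limma or in edgeR. Of 15037 genes tested limma called 0.0266%. An unadjusted p under 0.05 in limma was found for 7 of the 38, beside 2290 of the 15037. An interaction below 0 means a more negative difference with age in HFD than in chow offspring, which is not always a steeper fall. The interaction was below 0 for 29 of the 38 genes, with a median of -0.29 against -0.04 over all genes tested. It was below 0 for all 9 S, G2 and M phase genes (median -0.68) and all 8 spindle and chromosome genes (median -0.68), and above 0 for 7 of 10 replication genes (median 0.34). With 1 library left out the median of the 38 ran from -0.50 (without chow P21 replicate 1) to -0.06 (without chow P21 replicate 3). Several marker lists moved in the interaction as well, with no gene called: 9 of 10 precursor markers (median -0.84), 9 of 10 of astrocytes (-0.75), 10 of 12 of microglia (-0.77) and 11 of 12 endothelial and mural markers (-1.19) were below 0, and 12 of 14 genes of POMC neuron identity above it (0.93). Progenitor markers were below 0 for 10 of 14 (-0.42) and those of myelinating oligodendrocytes for 6 of 8 (-0.61). Immature neuron markers were below 0 for 5 of 9 (-0.10) and erythroid markers for 1 of 2 (-0.10). Their part in the interaction of the cell cycle genes was not tested. The smallest p were those of Ccnb1, -1.58 (SE 0.52, adjusted p = 0.17), Cdk2, -1.43 (SE 0.49, adjusted p = 0.186), Bub1, -1.34 (SE 0.53, adjusted p = 0.244), and Nusap1, -1.46 (SE 0.62, adjusted p = 0.276). A call in 1 diet and not in the other, as for Pcna or Cdk2, is thus not shown to be a difference between the diets.

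The mitotic genes were also summed by library. The 9 S, G2 and M phase genes summed to 46.9 to 67.6 units in chow P0 and 9.18 to 18.6 in chow P21, and to 47.5 to 76.8 in HFD P0 and 4.10 to 6.44 in HFD P21. The 8 spindle and chromosome genes summed to 44.6 to 74.8, 10.5 to 30.2, 53.2 to 119 and 8.12 to 17.9 in the same order. The P21 libraries of the 2 diets did not overlap in the first sum and did in the second. Among all genes tested, 16.1% did not overlap between the diets at P21. Of the 9 genes in the first sum 4 were high enough to be tested there, and none passed. Markers of other cells differed between the same P21 libraries. All 10 astrocyte markers lay lower in HFD than in chow P21 (median -0.92, 2 called), as did all 8 of myelinating oligodendrocytes (-1.15), all 10 of oligodendrocyte precursors (-0.94) and all 12 of microglia (-0.84), with none of these 30 called. Endothelial and mural markers were lower for 11 of 12 (-0.96) and progenitor markers for 12 of 14 (-0.59), none called, and genes of POMC neuron identity higher for 12 of 14 (0.54, 1 called). Summed, the precursor markers ran from 574 to 1065 in chow P21 and 302 to 482 in HFD P21, and the progenitor markers from 516 to 630 and 317 to 406, without overlap. Their part in the sums of the mitotic genes was not tested.

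Other genes of the cell cycle, from 7 lists beside the 38, were counted in the same way, to be read beside the 17.7% lower and 18.3% higher of all genes in chow and the 26.2% lower and 24.7% higher in HFD offspring. Of the genes of origin licensing and the replication fork 14 of 32 tested fell and none rose in chow, and 18 of 33 fell and 1 rose in HFD offspring. Uhrf1, which carries DNA methylation through replication, went from 7.84 ± 2.53 to 0.683 ± 1.04 in chow and 4.45 ± 3.13 to 0.485 ± 0.573 in HFD offspring (mean ± SD), at -2.51 and -1.69, and Prim1, the primase subunit, was at -1.40 and -1.32. The gene that rose in HFD offspring was Cdc45, a helicase cofactor, at 1.35 (from 2.61 ± 0.455 to 8.16 ± 0.694).

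Of the kinetochore and checkpoint genes 14 of 23 fell in chow and 20 of 24 in HFD offspring. Cdca8, borealin of the passenger complex, fell, at -2.17 and -2.61, and Cenpw, a centromere histone-fold protein, at -1.87 and -2.47. Zwint, a kinetochore protein that brain tissue also makes in abundance, was the only one that rose, from 624 ± 174 to 1412 ± 201 in chow and 549 ± 149 to 1775 ± 165 in HFD offspring (1.21 and 1.72).

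Of the motors and cytokinesis genes 9 of 27 fell and 2 rose in chow, and 19 of 25 fell and 1 rose in HFD offspring. Fam64a, a regulator of mitotic timing, fell, at -2.35 and -2.56, and Ckap2l, a spindle protein, at -2.18 and -3.14. Cit, a kinase of cytokinesis also made in neurons, rose in both (1.27 and 0.70) and Anln, an actin-binding protein of the cleavage furrow that oligodendrocytes also make, in chow (1.41). Of the genes of mitotic exit, condensin and cohesin 10 of 26 fell and 2 rose in chow, and 13 of 25 fell and 2 rose in HFD offspring. Cks1b, a CDK subunit, fell, at -2.21 and -2.85. Wee1, the kinase that holds Cdk1 inactive, rose from 5.75 ± 1.72 to 26.8 ± 8.25 in chow and 10.2 ± 3.21 to 22.6 ± 5.87 in HFD offspring (2.03 and 1.08), and Pttg1, securin, rose by 0.95 and 0.97.

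For the factors that govern these genes the share that fell in chow was near that of all genes. Of 20 genes of E2F, RB, DREAM and FOXM1 control 4 fell and 2 rose in chow and 10 fell and 3 rose in HFD offspring. Rb1, the retinoblastoma protein that holds E2F factors in check, fell from 34.9 ± 11.99 to 9.35 ± 3.48 and 26.8 ± 6.49 to 9.22 ± 4.17 (-1.78 and -1.5). Tfdp2, a partner of E2F factors, rose in chow (1.09, adjusted p = 0.000955) and was at -0.05 (0.876) in HFD offspring. Lin52, a DREAM subunit, rose in both (0.79 and 0.56), and E2f6 (1.09) and Lin37 (0.51) in HFD offspring.

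Among other inhibitors and genes of cell cycle exit 5 of 17 fell and 4 rose in chow, and 5 of 16 fell and 4 rose in HFD offspring, with the rises near the shares of all genes. Cdkn1c, an imprinted CDK inhibitor, fell from 91.4 ± 14.4 to 13.97 ± 0.982 in chow and 87.7 ± 18.2 to 11.9 ± 6.32 in HFD offspring, at -2.61 (SE 0.17, adjusted p = 5.92e-07) and -2.91 (SE 0.30, adjusted p = 4.25e-06). Cdk5r1, the activator of the neuronal kinase Cdk5, fell, at -1.18 and -1.34, while Cdk5 itself rose by 0.48 and 0.74. Gadd45a and Gadd45g, growth arrest genes of the stress response, rose in both diets (Gadd45a by 1.25 and 0.82, Gadd45g by 0.92 and 1.81), Tob1 rose in chow (0.74) and Cdkn2d in HFD offspring (0.49). Of the histone genes 1 of 11 fell and 3 rose in chow and 2 of 9 fell and 3 rose in HFD offspring, so that the lower calls did not exceed the shares of all genes, with Hist1h2bc at 1.78 and 1.63, Hist1h1c at 1.58 and 1.92 and Hist2h3c1 at 1.48 and 0.83. The deposited table holds 16 histone genes, and the rest were too low to be tested, so these counts do not cover them. The genes that rose, other than Wee1, Tfdp2, Hist1h2bc and Hist1h1c, were named after their values were seen. No gene of these 7 lists was called between the diets at either age or in the interaction. Cdc6, Orc1, Sgol2a, Kif14 and Cdkn2a were not analysed here. Knl1 was counted under its older symbol, Casc5.

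Of the 38 members 13 share exon bases with another gene in the GENCODE M21 annotation, and 5 share more than 10%, all with a gene on the opposite strand: Ccnd1 (23.4%, with LTO1), Cdk4 (19.7%, with Tspan31), Ccne2 (17.4%, with Ints8), Mcm7 (12.6%, with Ap4m1) and Ccna2 (12.5%, with Exosc9). Without strand in the counting, reads of such partners could not be told apart.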

How the data were processed

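Ribosome-bound RNA of 17 libraries was sequenced. Per the labels' protocols, it came from HA pull-downs of mediobasal hypothalamus and was made into Nextera XT libraries, read on a HiSeq as single 50-base reads. FastQC, TopHat2 (2.0.13), Picard (1.80), HTSeq (0.6.1), edgeR and the mm10 build are named per the submitters' processing notes. No source used here gives their settings, the strand used in counting or the gene filter. In the deposited table the authors give each gene's normalized signal with 2 decimals. Judged by the values, a column is whole reads over an effective library size: in each library 99.99% or more of the values above 0 fell on a whole read within rounding, against 22.2% to 37.0% for random placement, and this gave the depths. A further 15 columns are empty.

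limma 3.58.1 in R 4.3.3 was fitted to log2(value + 1) for each comparison on its own groups, with an intensity trend and Benjamini-Hochberg adjustment at 0.05, two-sided. Genes were tested where at least as many libraries as in the smaller group were above 1. The libraries of 1 group could thus admit a gene to a test, among the members and the other lists alike. The interaction used all 17 libraries. The age comparisons share libraries with the diet comparisons. The alternatives were edgeR 4.0.16 on the recovered reads, another pseudocount (0.25), no filter, other scalings, a replicate block, all groups in a single fit, and leaving out each library. The edgeR fits on all libraries, and the limma fits on the 6 libraries with sharp steps between whole reads, were chosen after seeing the data. The scripts were tested on simulated data.

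The members, roles, pathway lists and marker lists were chosen with earlier results of these data known, so they are no independent evidence of direction. All members may be named with their age tests. In the diet and interaction tests the 4 with the smallest p are named, and of each pathway list the 2 with the smallest p in chow offspring. RefSeq promoter windows were matched by symbol.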

Additional observations from a re-analysis of the deposited data

Results flagged for a closer look

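Of 114 gene and group pairs with 4 or 5 libraries, 6 held a library whose gap to the nearest of the others took an unusually large share of the range of its group. Chance flags about 1 in 20 groups. In chow P0, Ccne1 was at 18.63 in replicate 1 and at 7.90 to 10.13 in the others. In HFD P0, Mcm6 was at 49.12 in replicate 5, with the next at 25.14, and Aurkb at 11.64 in replicate 3, with the next at 4.80. In HFD P21, Top2a was at 4.10 in replicate 2, with the next at 0.25. In HFD P21 replicate 3, Mcm3 was at 0.20 against 0.93 to 1.03 in the others, and Mcm4 at 20.52, with the next at 14.74.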

How the results depend on the processing

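The count of members that fell in chow offspring, 26, was 15 to 26 with 1 library left out. It was 15 without chow P21 replicate 1 and 17 without replicate 2, where the calls over all genes went from 5251 to 4238 and 3912. Under the other limma settings on all libraries the count of members was 21 to 26. The count was 22 by edgeR on all libraries, where 4924 genes were called. On the libraries with sharp steps (3 at P0 and a lone chow P21 replicate 3, assumed to vary like the others) it was 1 by edgeR (926 genes called) and 3 by limma (1070), fits with fewer samples. In HFD offspring the count of 27 was 26 to 32, the highest with all libraries scaled to the same total, which moved the median of all genes from -0.05 to -0.21 and the share of calls that were lower from 51.4% to 61.6%. The same scaling moved the lower calls of all genes from 11 of 25 to 22 of 35 between diets at P21 and from 2 of 4 to 7 of 9 in the interaction. In chow offspring the median over G1 genes, -0.35, turned to 0.20 by edgeR and 0.17 by limma on the libraries with sharp steps, was -0.55 with the replicate block and -0.19 without chow P0 replicate 1, and that of the spindle genes was -0.61 by limma on those libraries.

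Replicate numbers are shared across groups, and their origin is not given. At P0 the deviations of same-numbered libraries correlated at over 0.1 in 3 of 5 pairs (0.19, 0.29 and 0.51, each library best with its own number) and at -0.05 and -0.18 in the others. At P21 they ran from -0.05 to 0.11. The numbers were therefore not taken to pair the libraries. With the replicate block 21 members fell in chow and 26 in HFD offspring, 1 was higher in HFD at P0 (Mki67, 1.38, adjusted p = 0.039, against 0.524 without the block), 0 passed at P21 or in the interaction, and Ccnd1 was at -0.0551 in chow offspring.

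Some differences short of the threshold, and that of Ccnd2, turned sign in chow offspring, and the cause was not tested. On the libraries with sharp steps Ccnd2 was at 0.18 (edgeR) and 0.25 (limma), Ccnd3 at 0.42 and 0.43, Cdk6 at 0.20 and 0.13 and E2f1 at 0.0765 (limma). With 1 library left out Ccnd1 ran from -0.25 to 0.44, Ccnd3 from -0.17 to 0.15 and Nusap1 from -0.85 to 0.0099. In HFD offspring Ccnd1 ran from -0.11 to 0.33 and Ccne2 from -0.36 to 0.0543, and with the same total Ccnd1 was at -0.0192.

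The calls over all genes moved more. Between diets at P0 they were 41, with 18 to 135 when 1 library was left out (the highest without HFD P0 replicate 5), 104 with the replicate block, 10 with all groups in a single fit, and 3 by edgeR and 24 by limma on the libraries with sharp steps. At P21 they were 25, with 3 to 51, 3 with the block, 16 without the filter and 13 by edgeR. In the interaction they were 4, with 2 to 557 (again without HFD P0 replicate 5), 133 with the block and 14 by edgeR. No member was among them apart from Mki67 above. Genes under about 1 unit, some mitotic genes at P21 among them, rest on few reads, as Aurkb with 0 to 16 reads per P21 library.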
